A study of Mus musculus with 13 samples.

Results

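The genes described here are 10 members of the fibroblast growth factor (FGF) pathway and its feedback inhibitors: the Sprouty genes Spry1, Spry2 and Spry4, the Sprouty-related genes Spred1 and Spred2, the phosphatase gene Dusp6, the receptor genes Fgfr1 and Fgfr2, the ligand gene Fgf10 and the transcription factor gene Etv5. They were chosen by symbol from the 30142 genes that carry a symbol of their own among the 65929 features of the array (a feature groups the probes of 1 transcript). Each of the 10 symbols has exactly 1 feature, so all 10 are described. The values of these mice were known when the list was drawn up, and the differences of the 10 genes are therefore given as descriptions with their standard errors.

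Gene expression was measured in endometrium scraped from the opened uterus of 13 female C57BL/6 mice, with 1 array per mouse made from 250 ng of total RNA. Every mouse had both ovaries removed at 6 to 8 weeks of age and was then kept for 12 weeks in 1 of 4 groups. The E2 group (n = 4) carried an estradiol-releasing pellet under the skin and ate normal chow. The HD group (n = 3) ate a high-fat diet without a pellet, the MIX group (n = 3) had the pellet and the high-fat diet, and the CON group (n = 3) had chow and no pellet. No group kept its ovaries, so CON is by design an estrogen-deprived control and not an intact cycling uterus. The comparisons address what estradiol, the diet and both together do to endometrial expression. E2, HD and MIX are all set against the same 3 CON mice, so their differences from CON are not independent of one another.

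FGF ligands bind receptor tyrosine kinases at the cell surface and pass their signal through Ras and the ERK kinases. The signal switches on its own brakes: Sprouty and Spred proteins act on the Ras and Raf steps, and DUSP6 removes the phosphates that activate ERK. In the uterus, stromal FGFs reach the epithelium through FGFR2, and in mice loss of Fgfr2 from the uterus disturbs its epithelium. Etv5, an ETS factor of the PEA3 group, and the Sprouty genes and Dusp6 are widely used as readouts of FGF and ERK signalling.

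Promoters are shown for the members that separated 2 groups without overlap. Spry1, Spry2, Spred2 and Etv5 are the members that were lower in every E2 mouse and every HD mouse than in every CON mouse, and Dusp6 is the member that was higher in every MIX mouse than in every HD mouse. The sequences are the 250 bases before the annotated start in RefSeq (GRCm38.p6), written 5′ to 3′ on the strand of the gene. The windows are chr3:37639697-37639946 on the plus strand for Spry1, chr14:105896820-105897069 on the minus strand for Spry2, chr11:19924192-19924441 on the plus strand for Spred2, chr16:22439571-22439820 on the minus strand for the first listed start of Etv5 and chr10:99262981-99263230 on the plus strand for Dusp6. Capitals mark the ETS core GGAAG or its complement CTTCC and the GC box GGGCGG or its complement CCGCCC.
Spry1: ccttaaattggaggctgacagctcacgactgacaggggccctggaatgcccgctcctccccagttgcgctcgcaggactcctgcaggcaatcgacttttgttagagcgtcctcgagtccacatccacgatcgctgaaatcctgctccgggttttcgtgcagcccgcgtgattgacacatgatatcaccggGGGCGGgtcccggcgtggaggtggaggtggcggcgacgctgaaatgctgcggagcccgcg
Spry2: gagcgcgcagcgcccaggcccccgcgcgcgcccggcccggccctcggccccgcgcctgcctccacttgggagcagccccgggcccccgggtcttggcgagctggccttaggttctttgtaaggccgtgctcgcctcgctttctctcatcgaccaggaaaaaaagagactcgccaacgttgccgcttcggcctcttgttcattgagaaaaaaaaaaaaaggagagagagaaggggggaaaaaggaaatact
Spred2: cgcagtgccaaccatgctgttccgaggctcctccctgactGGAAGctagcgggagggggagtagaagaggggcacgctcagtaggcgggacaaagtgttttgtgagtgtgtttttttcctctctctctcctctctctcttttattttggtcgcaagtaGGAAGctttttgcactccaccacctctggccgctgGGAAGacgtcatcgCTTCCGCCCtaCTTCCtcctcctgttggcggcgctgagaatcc
Etv5: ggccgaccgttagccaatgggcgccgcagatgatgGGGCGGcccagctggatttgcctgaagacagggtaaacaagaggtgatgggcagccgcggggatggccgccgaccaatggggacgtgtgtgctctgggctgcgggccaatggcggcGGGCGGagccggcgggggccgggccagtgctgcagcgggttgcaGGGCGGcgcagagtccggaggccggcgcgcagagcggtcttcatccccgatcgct
Dusp6: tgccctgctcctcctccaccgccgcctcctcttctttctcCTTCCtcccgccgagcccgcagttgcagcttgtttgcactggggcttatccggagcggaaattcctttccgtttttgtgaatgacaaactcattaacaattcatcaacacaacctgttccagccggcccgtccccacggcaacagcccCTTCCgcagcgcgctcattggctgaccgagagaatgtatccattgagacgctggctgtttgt

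The Spred2 window held 5 ETS cores and 1 GC box, and 1 of the ETS cores overlapped the GC box. The Dusp6 window held 2 ETS cores, the Etv5 window 3 GC boxes, the Spry1 window 1 GC box and the Spry2 window neither motif. RefSeq promoters were searched for 8 of the 10 genes, with a second start for Etv5, which makes 9 windows. No promoter was matched for Fgfr1, and Spry4 was left out of the search. An ETS core on either strand was in 6 of the 9 windows, against 64.1% of the 32851 mouse promoters of the same length. A GC box was in 5 of 9, against 32.7%. G and C made up 44% of the Fgfr2 window and 56% to 71.2% of the other windows, against a median of 52.4% over all promoters. The part of base composition in the GC box count was not tested. The half-site of the estrogen receptor, GGTCA, was in 2 of 9, against 35.2%. The full estrogen response element, in which the half-site and its complement TGACC stand 3 bases apart, was in 0 of 9 and in 0.0639% of all promoters. The longer ETS site CCGGAAG was in 0 of 9, against 6.91%, and the AP-1 site TGANTCA was in 0 of 9, against 6.75%. A match describes the letters of the window and not a bound site.

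Spry1, which encodes an inhibitor of receptor tyrosine kinase signalling, was lowest with the pellet and highest in CON. Its log2 expression was 6.65, 6.71, 6.91 and 6.81 in the E2 mice, 7.04, 6.91 and 6.91 in the HD mice, 6.70, 6.96 and 6.61 in the MIX mice, and 7.31, 7.45 and 7.16 in the CON mice. The lowest CON mouse lay above all 10 treated mice. Group means were 6.77 ± 0.117 in E2 (SD, n = 4), 6.96 ± 0.0763 in HD, 6.76 ± 0.182 in MIX and 7.30 ± 0.147 in CON (SD, n = 3 each). The order from low to high was MIX, E2, HD and CON, and MIX and E2 differed by less than the SD of either. The fitted difference from CON, adjusted for the code style described below, was -0.54 (SE 0.10, a fold of 0.688) in E2, -0.35 (SE 0.11) in HD and -0.50 (SE 0.13) in MIX.

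Spry2 encodes a Sprouty protein that binds the ubiquitin ligase Cbl and restrains Ras and ERK signalling. It had log2 expression of 7.44, 7.30, 7.10 and 7.37 in E2, 7.56, 7.40 and 7.53 in HD, 7.60, 7.73 and 7.23 in MIX, and 7.97, 8.18 and 7.70 in CON. All E2 and all HD mice lay below all CON mice, while MIX replicate 2, at 7.73, lay just above CON replicate 3, at 7.70. The order of the means from low to high was E2 (7.30 ± 0.148), HD (7.50 ± 0.082), MIX (7.52 ± 0.261) and CON (7.95 ± 0.241), and HD and MIX differed by less than their spread. The fitted difference from CON was -0.65 (SE 0.14, a fold of 0.636) in E2, -0.45 (SE 0.15) in HD and -0.38 (SE 0.18) in MIX.

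Spred2, which encodes a membrane-bound inhibitor of Ras that works with neurofibromin, had log2 expression of 7.72, 7.54, 8.09 and 8.22 in E2, 8.33, 8.06 and 7.95 in HD, 8.13, 7.78 and 7.75 in MIX, and 8.52, 8.47 and 8.75 in CON. Each of the 10 treated mice lay below each CON mouse. Means were 7.89 ± 0.314 in E2 (SD, n = 4), 8.11 ± 0.195 in HD, 7.89 ± 0.212 in MIX and 8.58 ± 0.152 in CON (SD, n = 3 each). E2, HD and MIX overlapped one another. The fitted difference from CON was -0.68 (SE 0.17, a fold of 0.626) in E2, -0.47 (SE 0.18) in HD and -0.80 (SE 0.21, a fold of 0.574) in MIX. Without HD replicate 3 the HD difference was -0.27.

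Spry4 and Spred1, the other Sprouty and Spred genes among the 10, overlapped between every pair of groups. Spry4, a Sprouty gene that FGF signals induce in many tissues, had log2 expression of 6.79, 6.03, 6.35 and 6.26 in E2, 6.49, 6.07 and 6.22 in HD, 6.43, 6.14 and 7.20 in MIX, and 6.87, 7.13 and 6.20 in CON. CON replicate 3 was among the lowest of all 13 mice and MIX replicate 3 was the highest, so the groups do not separate. Spred1, which like Spred2 restrains Ras, stayed between 7.61 and 8.22 in all mice. Its fitted difference from CON was -0.15 (SE 0.13) in E2, -0.13 (SE 0.14) in HD and -0.18 (SE 0.16) in MIX.

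**Figure D1:**
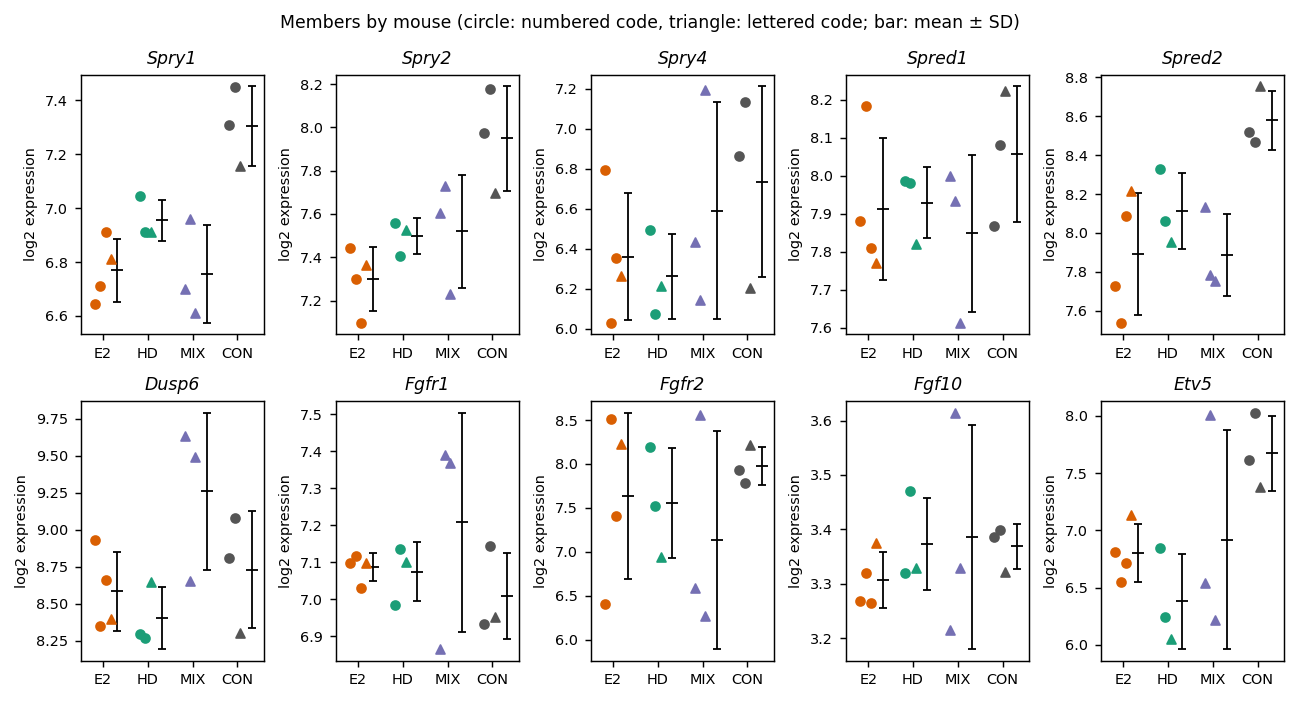
Log2 expression of the 10 genes in each mouse, with 1 panel per gene and the groups E2, HD, MIX and CON from left to right. Circles are mice with a numbered code, triangles mice with a lettered code, and bars the mean ± SD of a group. The CON mice lie above all E2 and HD mice for Spry1, Spry2, Spred2 and Etv5, and above all MIX mice for Spry1 and Spred2.

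Dusp6 encodes the cytoplasmic phosphatase that inactivates ERK. It had log2 expression of 8.93, 8.35, 8.66 and 8.39 in E2, 8.30, 8.27 and 8.65 in HD, 9.63, 8.65 and 9.49 in MIX, and 8.81, 9.08 and 8.30 in CON. MIX replicates 1 and 3 stood above all other mice, and MIX replicate 2 lay within the range of the E2 and CON mice. MIX replicate 2 and HD replicate 3 had the same rounded value, 8.65, so MIX and HD only just failed to overlap. Means were 8.58 ± 0.27 in E2 (SD, n = 4), 8.40 ± 0.21 in HD, 9.26 ± 0.531 in MIX and 8.73 ± 0.397 in CON (SD, n = 3 each). Fitted differences were 0.65 (SE 0.32) for MIX minus CON, 0.81 (SE 0.31) for MIX minus E2 and 0.97 (SE 0.32, a fold of 1.97) for MIX minus HD. The difference from CON was 0.27 without CON replicate 3 and 0.95 without MIX replicate 2. E2 and HD differed from CON by -0.16 (SE 0.26) and -0.33 (SE 0.27).

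Etv5 is an ETS transcription factor that FGF and ERK signalling switch on. It had log2 expression of 6.81, 6.55, 6.71 and 7.14 in E2, 6.85, 6.25 and 6.05 in HD, 6.54, 8.01 and 6.21 in MIX, and 7.62, 8.03 and 7.38 in CON. Every E2 and HD mouse lay below every CON mouse. In MIX, replicates 1 and 3 lay below every CON mouse and replicate 2 lay inside the CON range. The order of the means was HD (6.38 ± 0.414), E2 (6.80 ± 0.25), MIX (6.92 ± 0.955) and CON (7.67 ± 0.328), and E2 and MIX differed by less than their spread. The fitted difference from CON was -0.88 (SE 0.38, a fold of 0.542) in E2, -1.29 (SE 0.41, a fold of 0.408) in HD and -0.66 (SE 0.47) in MIX.

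The receptors and the ligand did not separate the groups. Fgfr2, whose epithelial splice form receives stromal FGFs, was the most variable of the 10 genes, with an SD of 0.80 over all mice. Its log2 expression was 6.41, 8.51, 7.40 and 8.23 in E2, 8.19, 7.52 and 6.94 in HD, 6.59, 8.56 and 6.27 in MIX, and 7.93, 7.78 and 8.21 in CON. The low mice, E2 replicate 1 and MIX replicates 1 and 3, shared their groups with the 3 highest, so the spread within groups exceeded the differences of -0.33 (SE 0.62) in E2, -0.42 (SE 0.66) in HD and -0.91 (SE 0.76) in MIX from CON. The single Fgfr2 feature gives 1 value for the gene and no split by splice form.

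Fgfr1, the broadly expressed FGF receptor of mesenchymal cells, lay between 6.87 and 7.39 in all mice, and both ends of that range were MIX mice. Its fitted difference from CON was 0.08 (SE 0.12) in E2, 0.06 (SE 0.13) in HD and 0.20 (SE 0.15) in MIX. Fgf10, a stromal ligand of the epithelial form of FGFR2, had values of 3.22 to 3.61, all below the array medians of 4.48 to 4.71. At that level its differences, from -0.06 to 0.02, say little about the ligand.

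**Figure D2:**
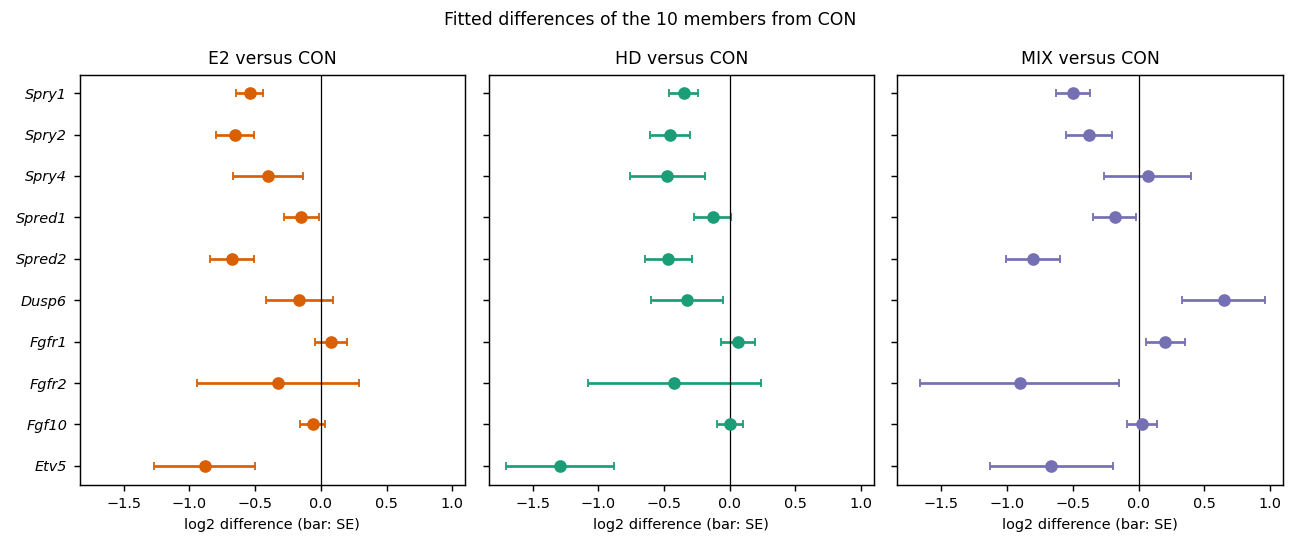
Fitted log2 differences of the 10 genes from CON, with standard errors as bars, for E2, HD and MIX from left to right. Spry1, Spry2, Spred2 and Etv5 lie left of 0 in all 3 panels, and Dusp6 lies right of 0 in MIX and left of it in E2 and HD.

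Set against all genes, E2 was lower than CON without overlap for 4 of the 10 genes, Spry1, Spry2, Spred2 and Etv5, where 3.09% of the 30142 genes were lower in that way. HD was lower than CON without overlap for the same 4 genes, against 3.91% of all genes. These shares describe where the chosen genes lie and support nothing further, since the genes were chosen with these comparisons known. MIX was lower than CON without overlap for 2 genes, Spry1 and Spred2, against 12% of all genes, and for 5 genes without MIX replicate 2 (Spry1, Spry2, Spred2, Fgfr2 and Etv5), against 20.3%. Without that mouse Dusp6 was higher in MIX than in CON without overlap, as were 14.8% of all genes. Without CON replicate 3, E2 was lower than CON for 6 of the 10 genes, with Spry4 and Fgf10 added, against 7.33% of all genes, and HD was lower for 6, with Spry4 and Dusp6 added, against 10.7%. MIX was higher than HD without overlap for 1 gene, Dusp6, against 5.37% of all genes, and 0 of the 10 genes separated MIX from E2, against 6.48% in either direction. None of the 10 separated all pellet mice from all mice without a pellet, against 0.78%.

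None of the 10 genes passed an adjusted p of 0.05 in limma over all 65929 features in any of the comparisons. The share of all features that passed was 0% for E2 against CON, for HD against CON, for MIX against E2 and for the interaction, 0.00303% for MIX against CON, 0.00455% for MIX against HD and 0.0167% for the pellet difference averaged over both diets. At an unadjusted p under 0.05, limma gave 2651 features (4.02%) for E2 against CON, 1918 (2.91%) for HD against CON, 1832 (2.78%) for MIX against E2 and 1382 (2.1%) for the interaction. These shares of all features are below what a threshold of 0.05 passes when nothing differs. Over the 30142 genes the shares were 5.16%, 2.61%, 3.13% and 1.94% in the same order, so that of E2 against CON was not below it. Over all features the shares were 8.34% for MIX against CON, 7.05% for MIX against HD and 9.99% for the averaged pellet difference. The smallest adjusted p among the 10 genes was that of Spry1 for the averaged pellet difference, at -0.35 (SE 0.08, adjusted p = 0.248 in limma). Spred2 followed with -0.50 (SE 0.13, adjusted p = 0.295 in limma) in the same comparison. For MIX against CON the adjusted p in limma was 0.353 for Spry1 and 0.357 for Spred2, and it was 1 for all 10 genes in E2 against CON and in HD against CON. Ltf, Lcn2, Pgr and Esr1 were read as a check of the estradiol labels. E2 minus CON was 0.44 (SE 0.23) for Ltf, 0.17 (SE 0.20) for Lcn2 and -0.57 (SE 0.40) for Pgr, all overlapping. Esr1 was lower without overlap, at -0.46 (SE 0.24), as were 3.09% of all genes. For Ltf, HD minus CON was 0.47 (SE 0.25) and MIX minus CON 0.82 (SE 0.29). None of these genes passed in any comparison, and each overlapped between all pellet mice and all mice without a pellet.

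The interaction, which subtracts E2 minus CON (chow) from MIX minus HD (high-fat diet), was positive for 9 of the 10 genes, where 53.3% of all genes had a negative one. High CON values raise this sum, and the genes were chosen with their differences from CON known. The count of positive signs is therefore a description and supports nothing further. It was 1.51 (SE 0.62) for Etv5, 1.14 (SE 0.41) for Dusp6, 0.95 (SE 0.43) for Spry4, 0.73 (SE 0.23) for Spry2 and 0.39 (SE 0.17) for Spry1, each with an adjusted p of 1 in limma. For Spry2, MIX differed from HD by 0.07 (SE 0.18) and E2 from CON by -0.65 (SE 0.14). For Etv5, MIX differed from HD by 0.63 (SE 0.47) and E2 from CON by -0.88 (SE 0.38). HD was itself lower than CON for both genes, as given above.

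The sample titles carry a numbered or a lettered code, and the labels do not say what the styles mean. All MIX mice and 1 mouse each of CON, E2 and HD have lettered codes, and the fit holds code style as a covariate. The values were therefore also taken within each style. For E2 against CON, Spry1 differed by -0.62 among numbered mice (n = 3 against 2) and by -0.34 between the lettered mice (n = 1 against 1), and Spred2 by -0.71 and -0.54. Spry2 differed by -0.79 among numbered and -0.33 between lettered mice, and Etv5 by -1.13 and -0.24. For HD against CON, Etv5 differed by -1.28 among numbered mice (n = 2 against 2) and by -1.33 between the lettered mice, and Spry2 by -0.59 and -0.17. Among lettered mice MIX differed from the 1 CON mouse by -0.40 for Spry1, -0.87 for Spred2 and 0.96 for Dusp6, and MIX differed from the 1 HD mouse by 0.61 for Dusp6.

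The wider pathway was counted by role from lists of Sprouty and Spred genes, other feedback inhibitors, FGF ligands, receptors, the Ras and ERK cascade and ERK target genes. No gene of these lists passed an adjusted p of 0.05 over all features in limma in any comparison. Of the 7 Sprouty and Spred genes, 6 were lower in E2 than in CON with a median difference of -0.40, and 7 were lower in HD than in CON with a median of -0.35. In MIX against CON 5 of 7 were lower, with a median of -0.18. The median over all genes was within 0.02 of 0 in each of these comparisons, and 5 of the 7 genes are the chosen members. The other 2 are Spred3, with a mean of 5.58 in E2, 5.59 in HD, 5.46 in MIX and 5.62 in CON, and Spry3, a Sprouty gene whose group means of 3.12 in E2, 2.85 in HD, 3.16 in MIX and 3.00 in CON lie below the array medians. At that dim level Spry3 was higher in every pellet mouse than in every mouse without a pellet, as were 0.604% of all genes. Its averaged pellet difference was 0.23 (SE 0.06, adjusted p = 0.315 in limma), the opposite sign to Spry1, Spry2 and Spred2. MIX minus HD was 0.33 for Spry3 (SE 0.10, adjusted p = 0.66 in limma).

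For the other roles the median differences from CON lay closer to 0. Most Sprouty and Spred genes were chosen with their differences from CON known, and most genes of the other roles were not. The contrast between roles therefore supports nothing further. The 20 measured FGF ligands had a median difference from CON of -0.02 in E2, 0.01 in HD and -0.05 in MIX, and the 7 receptors and co-receptors had -0.03 in E2, 0.02 in HD and -0.07 in MIX. The 12 measured genes of the adaptors and the ERK cascade had -0.02 in E2, -0.03 in HD and -0.04 in MIX. The 12 other feedback inhibitors had -0.04 in E2, -0.11 in HD and 0.00 in MIX. Of the 9 ERK target transcription factors, which include Etv5, 9 were lower in HD than in CON with a median of -0.12, and 4 were higher in E2 than in CON and 5 in MIX than in CON. In MIX against HD their median was 0.53, with 6 of 9 higher, against -0.02 over all genes. In the same comparison the medians of marker lists were 0.653 for stromal, 0.604 for endothelial, 0.853 for leukocyte and 0.866 for mesothelial markers. They were -0.0196 for epithelial, -0.0577 for smooth muscle and -0.24 for adipocyte markers. The part of cell types in the ERK target differences was not tested. The interaction was positive for 9 of the 9 ERK target transcription factors (median 0.23) and for 10 of the 12 other feedback inhibitors (median 0.28). The median over all genes was -0.01. Lists of cell type markers, described below, also had positive interactions: 11 of 11 stromal (median 0.35), 7 of 8 endothelial (0.575), 10 of 12 epithelial (0.106) and 6 of 6 squamous markers (1.75). It was positive for 3 of 9 leukocyte (-0.156), 1 of 5 mesothelial (-0.0871) and 0 of 4 adipocyte markers (-0.0537). The counts of signs are a description and support nothing further.

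**Figure D3:**
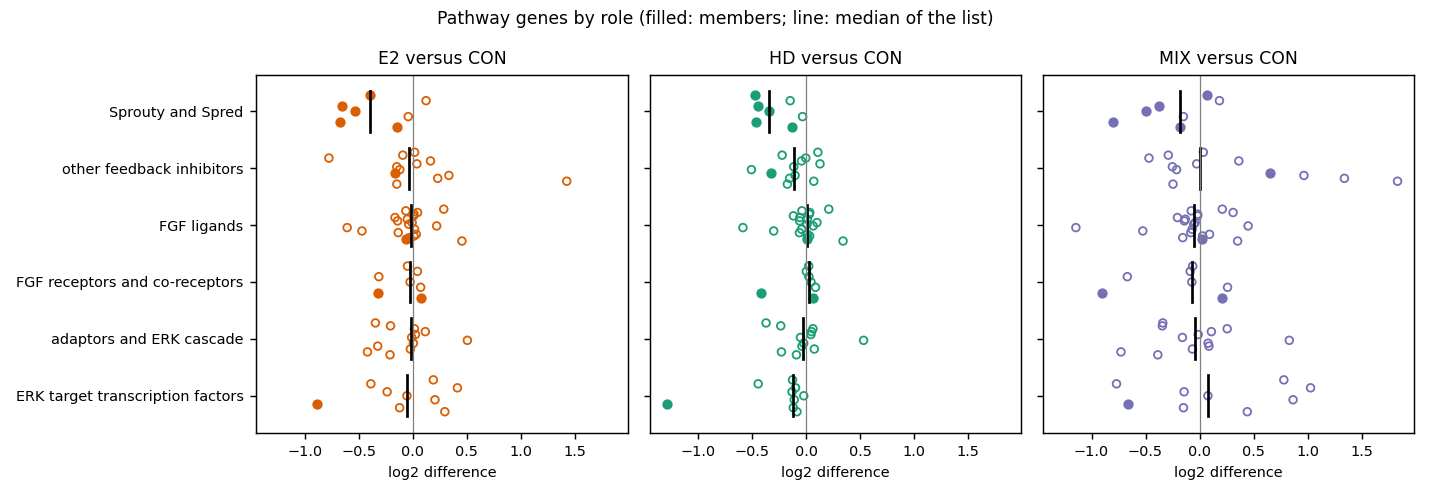
Fitted log2 differences from CON of the measured genes of 6 pathway roles, in E2, HD and MIX from left to right. Each point is 1 gene, filled points are the 10 members, and the black line is the median of a role. The Sprouty and Spred median lies at -0.40 in E2, -0.35 in HD and -0.18 in MIX, and the medians of the other roles lie between -0.12 and 0.08. Most Sprouty and Spred genes are members chosen with their differences from CON known.

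Among pathway genes outside the 10, Dusp1, an immediate-early phosphatase of MAP kinases, had means of 8.25 ± 0.64 in E2 (SD, n = 4), 8.45 ± 1.16 in MIX, 6.87 ± 0.489 in HD and 6.80 ± 0.539 in CON (SD, n = 3 each). All pellet mice, from 7.65 to 9.78, lay above all mice without a pellet, from 6.27 to 7.37. Of the 12 other feedback inhibitors 2 were higher in that way, Dusp1 and Dusp5, against 0.604% of all genes. For Dusp5 the lowest pellet value was 6.85, in MIX, and the highest value without a pellet 6.80, in CON. The averaged pellet difference of Dusp1 was 1.59 (SE 0.41, adjusted p = 0.294 in limma). Fgf18, an FGF ligand, had means of 7.50 ± 0.478 in E2, 7.55 ± 0.176 in HD, 7.18 ± 0.418 in MIX and 8.13 ± 0.0942 in CON. All HD and all MIX mice lay below all CON mice for Fgf18, as they did for 3.91% and 12% of all genes, and E2 overlapped CON. The Fgf18 difference of MIX from CON was -1.15 (SE 0.29, adjusted p = 0.347 in limma).

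Sos2, an exchange factor that loads Ras with GTP, differed from CON by -0.35 (SE 0.10) in E2 and by -0.37 (SE 0.10) in HD. Its means were 7.65 in MIX and 7.79 in CON, and MIX overlapped CON. Lrig1, a transmembrane inhibitor of growth factor receptors, differed from CON by -0.78 (SE 0.34) in E2. Its means were 9.66 in HD, 9.19 in MIX and 9.67 in CON. Dusp7, a cytoplasmic ERK phosphatase like Dusp6, differed from CON by -0.51 (SE 0.18) in HD. Its means were 7.56 in E2, 7.52 in MIX and 7.69 in CON. Map2k1, of the same cascade list as Sos2, went the other way. Its means were 8.32 ± 0.251 in E2, 8.33 ± 0.322 in HD, 8.52 ± 0.434 in MIX and 7.80 ± 0.298 in CON. All E2 and all MIX mice lay above all CON mice for Map2k1, as they did for 3.84% and 7.68% of all genes. In MIX against HD, Dusp4, a nuclear phosphatase of MAP kinases, differed by 1.49 (SE 0.53), the ERK-induced gene Phlda1 by 0.91 (SE 0.29) and Il17rd, which encodes the FGF receptor inhibitor Sef, by 0.41 (SE 0.13). Phlda1 and Il17rd were higher in MIX than in HD without overlap, as were 5.37% of all genes. Dusp4 overlapped, at 6.36 to 8.81 in MIX (SD 1.23) and 6.28 to 6.58 in HD. None of the genes named in this paragraph passed in limma, with adjusted p values of 0.685 for Dusp4, Phlda1, Il17rd and Dusp6 in MIX against HD.

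Variation across mice was compared between the members. Among 45 pairs over the 13 mice, Pearson's r was positive for 30. It passed an adjusted permutation p of 0.05 for 2 pairs and an unadjusted one for 10, and with group means removed it passed for 0 of 45 after adjustment. Spry1 and Spry2 had r = 0.808 (permutation p = 0.00089, adjusted p = 0.0385) and rho = 0.713 (permutation p = 0.00767, adjusted p = 0.129). With group means removed r was 0.503 (permutation p = 0.218, adjusted p = 0.665), and without CON replicates 1 and 2, the mice farthest from the median of Spry1, it was 0.485. The relation therefore rests in part on the CON mice, whose difference from the other groups was known when the genes were chosen.

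Spry1 and Spred2 had r = 0.775 (permutation p = 0.00171, adjusted p = 0.0385) and rho = 0.746 (permutation p = 0.00469, adjusted p = 0.129), with r = 0.736 without CON replicates 1 and 2. With group means removed r was 0.191 (permutation p = 0.577, adjusted p = 0.943), so within groups the relation did not pass the threshold. Here too the difference of the CON mice was known when the genes were chosen. Dusp6 and Fgfr2 ran the opposite way, with r = -0.724 (permutation p = 0.00559, adjusted p = 0.0629) and rho = -0.577 (permutation p = 0.0432, adjusted p = 0.205). With group means removed their r was -0.863 (permutation p = 0.00206, adjusted p = 0.0927), the largest in size of the 45 within groups. Without MIX replicates 1 and 3, which had the highest Dusp6 and low Fgfr2, r was -0.471. Spry4 and Dusp6, a pair of ERK feedback inhibitors, had r = 0.670 (permutation p = 0.0129, adjusted p = 0.0968), rho = 0.698 (permutation p = 0.0105, adjusted p = 0.129) and r = 0.741 with group means removed (permutation p = 0.0442, adjusted p = 0.435), and 0.465 without MIX replicate 3 and CON replicate 2. Spry1 and Etv5 had r = 0.697 over all mice (permutation p = 0.00852, adjusted p = 0.0767), rho = 0.691 (permutation p = 0.0115, adjusted p = 0.129), r = 0.443 without CON replicates 1 and 2, and r = 0.804 with group means removed (permutation p = 0.00885, adjusted p = 0.199).

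**Figure D4:**
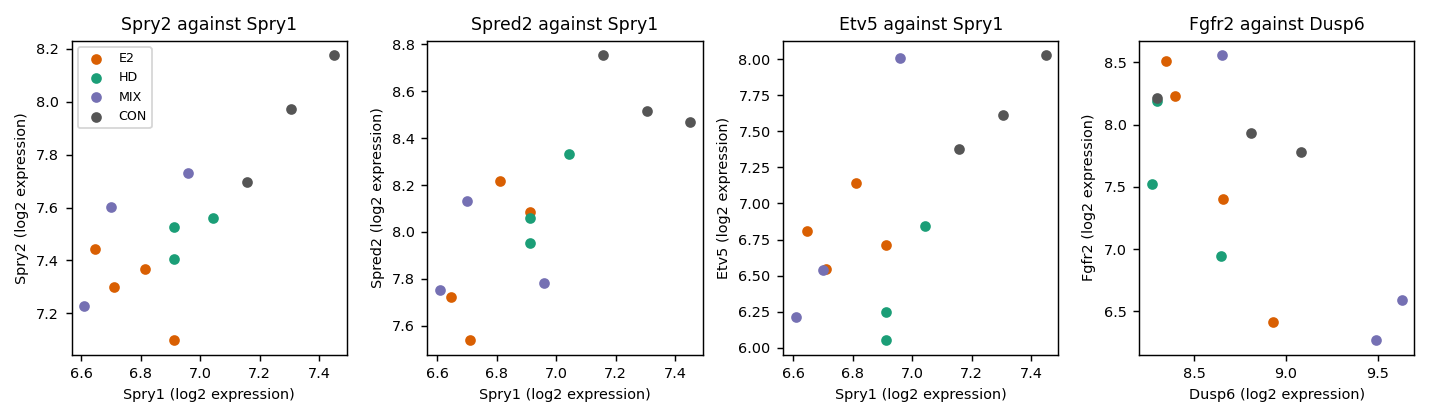
Log2 expression of Spry2, Spred2 and Etv5 against Spry1 and of Fgfr2 against Dusp6, with 1 point per mouse coloured by group. Pearson's r over the 13 mice is 0.808, 0.775, 0.697 and -0.724 from left to right, and the CON mice form the right end of the first 3 panels.

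Scraped endometrium is a mixture of cells, and in bulk tissue fewer cells of a type and less RNA per cell cannot be told apart. Epithelial and stromal markers were among the bright features, with mean log2 expression over all mice of 10.6 for Epcam, 11.4 for Krt8 and 11.2 for Dcn. Leukocyte markers differed between the groups in the opposite direction to Spry1 and Spred2. Of 9 measured leukocyte markers, 9 were higher in E2 than in CON (median difference 1.12), 8 in HD than in CON (0.54) and 9 in MIX than in CON (1.42), and none of them passed the adjusted threshold in limma. The mean of the leukocyte markers was 7.341 to 7.783 in E2, 7.041 to 7.146 in HD, 7.355 to 8.672 in MIX and 6.184 to 6.767 in CON. The mean of 5 mesothelial markers, which belong to the outer lining of the uterus, was 8.062 to 9.29 in E2, 8.166 to 8.289 in HD, 8.477 to 9.234 in MIX and 7.493 to 8.13 in CON. The mean of 6 squamous epithelial markers was 6.611 to 7.915 in E2, 6.025 to 6.146 in HD, 7.677 to 9.478 in MIX and 5.908 to 6.337 in CON. Other lists had the same sign as Spry1 and Spred2. The 4 measured adipocyte markers were lower than in CON in E2 (median -0.20), HD (-0.17) and MIX (-0.44), and their mean was 4.405 to 4.698 in E2, 4.5 to 4.557 in HD, 4.28 to 4.469 in MIX and 4.504 to 5.056 in CON. The 8 smooth muscle markers were lower in E2 (8 of 8, median -0.24), in HD (8 of 8, median -0.05) and in MIX (7 of 8, median -0.17) than in CON, and their mean was 6.248 to 6.742 in E2, 6.418 to 6.9 in HD, 6.186 to 7.242 in MIX and 6.233 to 7.328 in CON. No marker of the mesothelial, adipocyte or smooth muscle lists passed the adjusted threshold in any comparison, and of the squamous list 1 passed for MIX against HD and 2 for the averaged pellet difference. Of 2 red cell markers, 1 passed for MIX against CON, for MIX against HD and for the averaged pellet difference. In MIX against CON, 11 of 11 stromal markers (median 0.435) and 8 of 8 endothelial markers (0.265) were higher. In HD against CON, 7 of 11 stromal (-0.122) and 7 of 8 endothelial markers (-0.224) were lower. Epithelial medians against CON were -0.0865 in E2, 0.0308 in HD and 0.0417 in MIX.

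Of 90 pairs of a member and a marker score, 6 passed an adjusted permutation p of 0.05 over all mice and 0 passed with group means removed. The permutations over all mice shuffled them across groups, and the members were chosen with their differences from CON known. A score that sets CON apart therefore runs with or against Spry1 and Spred2, and these p values give no independent support. Spry1 ran against the leukocyte score with r = -0.784 (permutation p = 0.00135, adjusted p = 0.0405), rho = -0.796 (permutation p = 0.00161, adjusted p = 0.0936), r = -0.751 without the 2 mice farthest from its median and r = -0.200 with group means removed (permutation p = 0.748, adjusted p = 0.905). Spred2 ran against the leukocyte score with r = -0.784 (permutation p = 0.00115, adjusted p = 0.0405), rho = -0.753 (permutation p = 0.00416, adjusted p = 0.0936), r = -0.826 without its 2 farthest mice and r = -0.396 with group means removed (permutation p = 0.216, adjusted p = 0.737). With the adipocyte score Spred2 had r = 0.637 (permutation p = 0.014, adjusted p = 0.115), rho = 0.538 (permutation p = 0.0604, adjusted p = 0.32), r = 0.443 without those mice and r = 0.340 within groups (permutation p = 0.276, adjusted p = 0.828). Spred2 and the mesothelial score had r = -0.794 (permutation p = 0.00111, adjusted p = 0.0405), rho = -0.753 (permutation p = 0.00385, adjusted p = 0.0936), r = -0.789 without those mice and r = -0.512 within groups (permutation p = 0.193, adjusted p = 0.737). The r values within groups were smaller in size, and the part of other cell types in the Sprouty and Spred differences was not tested.

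Dusp6 ran with the squamous score, at r = 0.775 (permutation p = 0.00327, adjusted p = 0.049), rho = 0.714 (permutation p = 0.00807, adjusted p = 0.121) and r = 0.744 within groups (permutation p = 0.0336, adjusted p = 0.357). Without MIX replicates 1 and 3 it was 0.307, so the relation rests on those mice. Fgfr1 ran with the stromal score (r = 0.767, permutation p = 0.00235, adjusted p = 0.0423; rho = 0.688, permutation p = 0.0113, adjusted p = 0.145) and had r = 0.486 without its 2 farthest mice and 0.739 within groups (permutation p = 0.0114, adjusted p = 0.319). It also ran with the endothelial score (r = 0.748, permutation p = 0.00207, adjusted p = 0.0423; rho = 0.638, permutation p = 0.0216, adjusted p = 0.195), with r = 0.520 without those mice and 0.744 within groups (permutation p = 0.239, adjusted p = 0.759). MIX replicate 2, the MIX mouse with Etv5 at 8.01 and Fgfr2 at 8.56, had the highest endothelial mean, 8.06, and the highest stromal mean, 9.598, of the 13 mice, and the lowest epithelial mean, 9.483. The part of these marker levels in its Etv5 and Fgfr2 values was not tested.

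**Figure D5:**
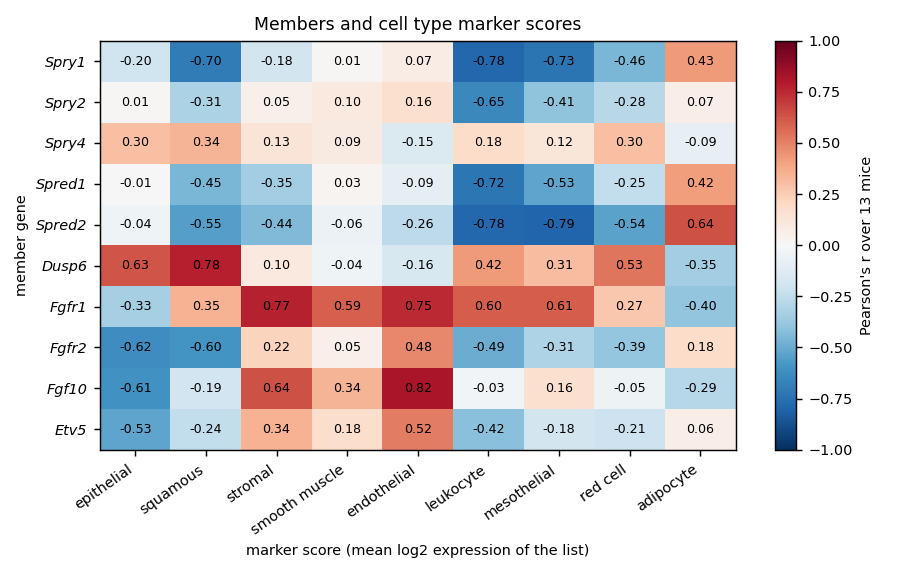
Pearson's r over the 13 mice between each of the 10 genes (down the page) and the mean log2 expression of each of 9 marker lists (across), with red for positive and blue for negative values. Spry1 and Spred2 are at -0.78 with leukocyte markers, Dusp6 at 0.78 with squamous markers and Fgfr1 at 0.77 with stromal markers.

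The genes whose values followed a member most closely over the 13 mice were looked up among 14842 genes with a mean above the median feature. For Spry1 they were Plekhg5 (r = 0.947), Pcgf2 (r = 0.900) and Telo2 (r = 0.899), and for Spry2 Adat2 (r = 0.858), Med16 (r = 0.853) and Fam122a (r = 0.823). For Spred2 they were Wbp11 (r = 0.933), Ccar2 (r = 0.932) and Champ1 (r = 0.925). For Dusp6 they were Clic3 (r = 0.949), Col17a1, a collagen of basal epithelium (r = 0.915), and Rap1gap (r = 0.912), and for Etv5 the first was Ablim1 (r = 0.885). Fgfr2 was followed by Zhx3 (r = 0.949), Ap1s3 (r = 0.943) and Il17rb (r = 0.938). These are the highest values among many genes over mice that share their group differences, and they are given as a description.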

How the data were processed

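Each of 13 mice gave 1 array, and the replicates are separate mice by their titles. Per the submitters' processing notes, the authors made the deposited log2 expression values with RMA, which corrects background, equalises the arrays and summarises probes per feature. For its version, the array library and filters, the sources used here give nothing. An array gives no read depth, so precision depends on how many mice there are.

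Feature names come from the platform annotation, with 827 symbols updated. Of 65929 features 30604 carry 1 symbol, 2146 several and 33179 none here. Tests used lmFit and eBayes of limma 3.58.1 (R 4.3.3), with 13 mice in 1 fit of 4 groups, code style as covariate and 8 residual degrees of freedom, at a Benjamini-Hochberg adjusted p of 0.05 over all features, two-sided. The script was tested on simulated data. By code style limma called 0 features, and 3516 had an unadjusted p under 0.05. Correlations used 100000 permutations in Python 3.11.15 (numpy 2.4.6), two-sided.

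The members, the gene lists and the comparisons were chosen with earlier results of these data known. Of each pathway list, all genes were counted, and named were the members and, per comparison, at most 2 others with the smallest p. Map2k1 was added because it differed from CON in the opposite direction to Sos2. Dusp5 was added because it separated the pellet mice from the others as Dusp1 did. Some genes of the pathway lists are not analysed here. Titles share replicate numbers, but of 18 pairs of same-numbered mice 6 had deviations correlated over 0.1 (range -0.373 to 0.378), so the numbers were not taken to pair mice. Alternatives covered the code style term, the mice fitted, a filter on dim features, normalization, variance moderation, replicate blocks and leaving out each mouse.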

Additional observations from a re-analysis of the deposited data

How the results depend on the processing

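The 10 genes gave 70 fitted differences and 1513 values under alternatives. Of these 1451 kept the sign and 62 did not, 30 moved by over 1 SD, and none passed the threshold, with a smallest adjusted p of 0.109 in limma against 0.248 as reported. Spry1, Spry2, Spred2 and Etv5 stayed lower in E2 and in HD than in CON under every alternative run: Spry1 by -0.6082 to -0.4716 in E2 and -0.4229 to -0.283 in HD, and Etv5 by -1.141 to -0.7103 in E2 and -1.521 to -1.118 in HD. Leaving out 1 mouse, Spry2 ran from -0.7889 to -0.5383 in E2 and -0.599 to -0.341 in HD, Spred2 from -0.7944 to -0.5714 in E2 and -0.613 to -0.2681 in HD. In MIX against CON, Etv5 ran from -1.206 without MIX replicate 2 to -0.3097 without MIX replicate 3, Spry2 from -0.6198 without CON replicate 3 to -0.2311 without MIX replicate 3, and Dusp6 from 0.2742 to 0.9531. The mean over all features of a gene gave the same values, since each member has 1 feature.

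Members without overlap numbered 4 to 6 for E2 against CON and for HD against CON, 2 to 6 for MIX against CON, 0 to 2 for MIX against E2 and 1 to 3 for MIX against HD when each mouse was left out, an alternative added after seeing the data. The 6 in MIX against CON came without MIX replicate 2. Over the same alternatives the share of all genes without overlap was 4.34% to 7.33% lower and 4.69% to 7.13% higher for E2 against CON, 5.79% to 11.2% and 6.58% to 12.6% for HD against CON, 14.1% to 22.1% and 9.98% to 14.8% for MIX against CON, 4.94% to 10.4% and 2.96% to 6.59% for MIX against E2, and 11.8% to 18.8% and 6.94% to 11.1% for MIX against HD.

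Counts over all features moved for MIX against CON (2) to 15 without the code style term, 0 with only those mice, 11 with features above the median, 5 with arrays centred, 1 with quantile normalization repeated and 0 with a replicate block, with or without code style. For MIX against HD (3) they were 12, 0, 6 and 5 under the term, mice, filter and quantile alternatives and 0 with the replicate block and code style. The averaged pellet difference (11) gave 6 with an intensity trend, 0 with the replicate block and code style and 3 with the block alone, and MIX against E2 (0) gave 1 without code style. Leaving out 1 mouse gave 0 to 89 for MIX against CON, 0 to 80 for MIX against HD, 0 to 224 for the averaged pellet difference, 0 to 24 for MIX against E2 and 0 to 2 for the interaction. The 224 and 80 came without MIX replicate 1, the 89 and 24 without MIX replicate 2, and 0 in the first 3 without CON replicate 3. The count moved by over 1.5 times without every mouse but MIX replicate 3 for MIX against CON, without every mouse but E2 replicate 3 for the averaged pellet difference, and without every mouse but E2 replicate 3, HD replicates 2 and 3 and MIX replicate 3 for MIX against HD. No member was called under the replicate block. The cause of these changes was not tested.

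Spry1 with Spry2 had r of 0.485 without the 2 farthest mice, 0.503 with group means removed and 0.686 to 0.893 leaving out 1 mouse. Spry1 with Spred2 had 0.736, 0.191 and 0.738 to 0.815. Dusp6 with Fgfr2 had -0.768 to -0.631, with adjusted permutation p under the threshold without HD replicate 3 (-0.761) or MIX replicate 2 (-0.758).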
